A study of Mus musculus with 20 samples.

Results

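The comparison described here set 5 libraries labelled shKDM6B dCat Rescue against 5 libraries labelled shKDM6B, 10 of the 20 libraries of the series, paired by the number 1 to 5 that each library carries. All came from cultured mouse cerebellar granule neurons, the small glutamatergic neurons that fill the granular layer of the cerebellum. Both groups received an shRNA directed at mouse Kdm6b. The dCat cultures were infected at the same time with a human KDM6B enzymatic domain in an inactive form, called the dead domain below. The remaining libraries were 5 controls and 5 labelled shKDM6B Cat Rescue, which carried the shRNA and the active form of the domain. Infection took place on day 1 in vitro, the antimitotic AraC followed on day 2, and RNA was taken on day 7. The labels do not say what the control cultures or the cultures with shRNA alone received in place of a domain, which promoter drove the domain, or whether the 5 libraries of a group came from separate cultures or animals. The p-values therefore measure the spread between these samples, which may be technical.

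KDM6B is a dioxygenase of the Jumonji family that removes methyl groups from lysine 27 of histone H3, a mark that the Polycomb complex PRC2 writes and that accompanies gene silencing. Its paralogue KDM6A, on the X chromosome, has the same activity, and both proteins have roles outside their catalytic domain through the complexes they join. In differentiating granule neurons Kdm6b is known for its part in switching on late synaptic genes. A dead enzymatic domain tests what the introduced protein does without demethylation, and the labels state that the study asked whether enzymatic activity is enough to restore synaptic gene expression.

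The 10 libraries held 14200745 to 21179300 estimated counts and 16873 to 17292 detected genes, and 15284 of 24411 genes had enough counts to be tested. Levels are given as CPM, the share of a library's counts on a common scale with library sizes adjusted by TMM factors. They are not divided by gene length and so do not compare 1 gene with another. Libraries of 1 number resembled each other across groups. Numbers 4 and 5 stood apart from numbers 1 to 3: the ribosomal precursor Rn45s took 0.279 to 0.611% of counts against 2.43 to 7.24%, and the nuclear RNA Malat1 ranged over 217 to 885 CPM compared with 4600 to 6574 CPM. None of the 11 granule neuron markers was at 0 in any of the 10 libraries. Their summed level ran from 1313 CPM in shKDM6B number 4 to 6461 CPM in shKDM6B number 2, and from 2309 to 5904 CPM in the dead rescue, again lowest in number 4. Cultures also held other cells: the 12 fibroblast markers summed to 6022 to 26780 CPM in shKDM6B and 6105 to 28820 CPM in the dead rescue, highest in number 5, and the 13 astrocyte markers were highest in number 4, at 15980 and 13650 CPM. In such bulk RNA, fewer cells of a type and less RNA per cell cannot be told apart.

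Kdm6b itself was read at a higher level in the dead rescue than with the shRNA alone. In shKDM6B it stood at 99.4, 112, 89.3, 37.9 and 76.4 CPM in numbers 1 to 5, and in the dead rescue at 272, 250.1, 192, 54.9 and 109 CPM. Each dead rescue library was above the shKDM6B library of its number, but the groups overlapped, with dead rescue number 4 below 4 of the 5 shKDM6B libraries. The means were 83.0 ± 28.3 CPM (SD, n = 5) and 176 ± 92.2 CPM (n = 5), against 144 ± 40.5 CPM in control (n = 5) and 212 ± 109 CPM in the active rescue (n = 5).

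The paired log2 differences in Kdm6b were 1.45, 1.16, 1.10, 0.53 and 0.52 for numbers 1 to 5, a mean of 0.95 ± 0.41 (SD, n = 5 pairs). An exact two-sided sign-flip test gave p = 0.0625, the smallest that 5 pairs allow, or 0.1875 after Benjamini-Hochberg adjustment over 6 tests of Kdm6b and Kdm6a. The excess was over 2-fold in numbers 1 to 3 and smaller in numbers 4 and 5. Set against the control libraries, the dead rescue was higher in numbers 1 to 3 and lower in numbers 4 and 5 (mean log2 difference 0.12 ± 0.75; exact sign-flip p = 0.75). It was below the active rescue in 5 of 5 pairs, by a mean of -0.28 ± 0.17 on the log2 scale (exact sign-flip p = 0.0625). Kdm6b occupies positions 69398508 to 69413675 of chromosome 11 (minus strand), opposite Kdm6bos, in the GENCODE annotation of GRCm38, also called mm10. Whether reads of the introduced human domain were counted under the mouse gene was not tested, so the values do not separate endogenous transcript from the domain.

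**Figure D1:**
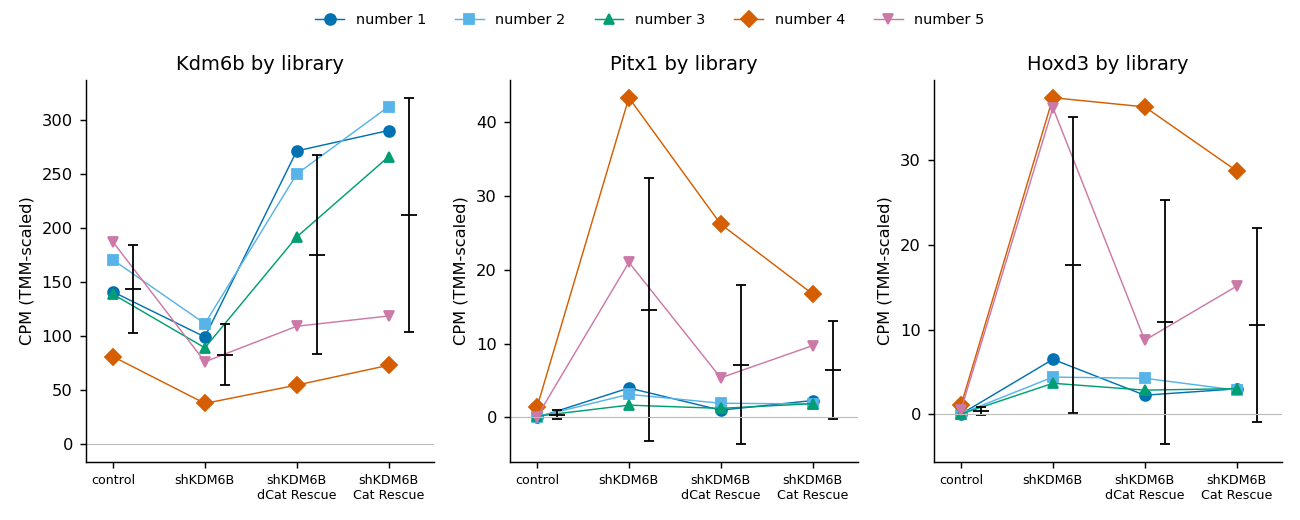
Levels of Kdm6b, Pitx1 and Hoxd3 in CPM (vertical axis) in each of the 20 libraries of the 4 groups (horizontal axis); lines join libraries of 1 number and black bars give the mean and SD of 5 libraries. Kdm6b was higher in the dead rescue than in shKDM6B in all 5 numbers, and Pitx1 and Hoxd3, at 0.362 and 0.383 CPM on average in control, were highest in numbers 4 and 5 of the other groups.

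Kdm6a did not differ beyond its spread. It stood at 49.4, 66.4, 42.2, 12.5 and 51.5 CPM in shKDM6B and at 69.6, 48.9, 32.1, 23.5 and 53.8 CPM in the dead rescue, higher in 3 of 5 pairs (mean log2 difference 0.13 ± 0.58; exact sign-flip p = 0.5625). Of the other 11 genes among the H3K27 demethylases and PRC2 subunits, none was under an unadjusted p of 0.05. The catalytic subunit Ezh2 was at 22.3 ± 7.36 CPM in shKDM6B and 23.0 ± 4.70 CPM in the dead rescue (n = 5 each), a fitted log2 fold change of 0.09 with a 95% interval from -0.18 to 0.36. Suz12, a core PRC2 subunit, had a log2 fold change of 0.13 (interval -0.13 to 0.39). The 17 subunits of the KMT2 COMPASS complexes, which methylate lysine 4 and which KDM6A joins, and the 19 other Jumonji demethylases each had 0 genes under an unadjusted p of 0.05.

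Across all genes, none passed the test between the dead rescue and shKDM6B. The quasi-likelihood test of edgeR, fitted with the number as a block, called 0 of 15284 genes at an adjusted p of 0.05 (0%), and the smallest adjusted p was 0.9999. Without adjustment 214 genes (1.4%) had p under 0.05, 111 higher (0.726%) and 103 lower (0.674%), where 764 are expected at that threshold if nothing differs. The 214 lie well below that number, and the count depended on the setting. It was 999 without the libraries numbered 4 and 872 with limma voom and library weights. The 0 calls therefore do not show that nothing differs. DESeq2 with the same block called 146 genes, of which 141 averaged under 1 CPM over the 20 libraries and 141 had over 50% of their CPM in 1 library. Among its calls, 3 genes averaged at least 5 CPM and lay on 1 side in all 5 pairs: Kdm6b (DESeq2 adjusted p = 0.000747), Nmnat2 (0.00298) and Gprc5b (0.0187). Voom with library weights called 0. The same edgeR fit called 632 genes (4.14%) between shKDM6B and control, 263 higher (1.72%) and 369 lower (2.41%).

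The size of difference these data leave room for can be read from the intervals. Over the 12081 genes with at least 5 CPM, the median standard error of the log2 fold change was 0.13 and the median 95% interval reached 0.26 to either side. For a typical gene of that level, a difference smaller than this lay within the interval. The interval is for 1 gene without adjustment, and the threshold over all 15284 genes asks for more. Differences well above 0.26 also went uncalled in edgeR, such as Kdm6b at 0.98. The median log2 fold change over all tested genes was -0.00, and 90% of genes lay between -0.29 and 0.23. Only 69 of the 15284 genes differed at least 2-fold, 7 of them with 5 CPM or more. Besides Pitx1, those 7 were Ankrd60, Gm14430, Gm7334, Hist2h3c2, Mroh6 and Pcdhgb8, listed after their values were seen. None of the other 6 moved one way in 5 of 5 pairs; Gm7334 averaged 3.76 ± 8.40 CPM in shKDM6B and 7.53 ± 10.5 CPM in the dead rescue (SD, n = 5 each), an SD above the mean in both groups.

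**Figure D2:**
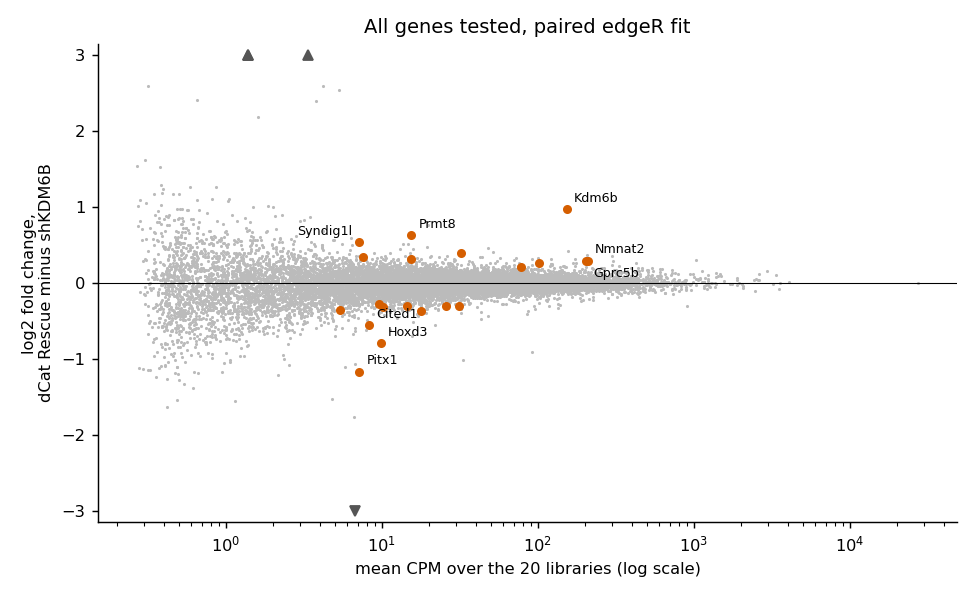
Log2 fold change of the dead rescue against shKDM6B (vertical axis) for each of the 15284 genes tested, by mean CPM over the 20 libraries (horizontal log axis); orange points are the 20 genes named by rule and dark triangles stand for 4 genes beyond 3 on the axis. Kdm6b, at a log2 fold change of 0.98, is the labelled gene farthest above 0, and Pitx1, at -1.17, the farthest below.

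The pairs did not contribute alike. The median absolute log2 difference over the 12081 genes was 0.17, 0.23, 0.16, 0.28 and 0.12 in pairs 1 to 5. Pair 4 had 416 genes at least 2-fold apart, 337 of them higher in the dead rescue, while pair 5 had 76, pair 1 had 61, pair 2 had 142 and pair 3 had 41. Without the libraries numbered 4 edgeR again called 0 genes, and 999 had an unadjusted p under 0.05. In numbers 1 to 3 alone it called 1 gene, Kdm6b, at a log2 fold change of 1.25 (edgeR adjusted p = 0.000119).

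Since none passed the threshold, the genes named next are those of the smallest unadjusted p in the edgeR fit that averaged at least 5 CPM and lay on 1 side in all 5 pairs, 10 in each direction. Of all tested genes, 267 (1.75%) were higher in 5 of 5 pairs and 235 (1.54%) lower. The values of the named genes are a description of these libraries.

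Those higher with the dead domain, after Kdm6b, were led by Nmnat2 and Gprc5b. Nmnat2, the NAD-synthesizing enzyme that protects axons from degeneration, stood at 208, 261, 161, 67.6 and 169.5 CPM in shKDM6B and at 253, 292, 189, 94.0 and 214 CPM in the dead rescue. The log2 fold change was 0.30 ± 0.07 (SE), with 258 ± 99.4 CPM (SD, n = 5) in control. Gprc5b, an orphan receptor of the G protein-coupled family, stood at 183, 215, 151, 74.6 and 174 CPM against 235, 230.5, 173, 97.7 and 235 CPM, a log2 fold change of 0.29 ± 0.08. In both genes the 5 pairs were alike in direction but the groups overlapped, with number 4 lowest in each. Gprc5b overlaps Iqck on the opposite strand, and whether counting used strand is not given in the sources used here.

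Prmt8, an arginine methyltransferase of neuronal membranes, was also above shKDM6B in every pair. It was at 9.03, 13.9, 8.44, 5.11 and 10.1 CPM in shKDM6B and at 17.0, 20.4, 12.1, 7.21 and 15.8 CPM in the dead rescue. Its paired log2 differences ran from 0.49 to 0.91 and its fitted log2 fold change was 0.63 ± 0.19 (SE), with 25 ± 7.11 CPM in control and 13.1 ± 5.80 CPM in the active rescue (SD, n = 5 each). Tunar, a long noncoding RNA of neural cells, went from 22.1 ± 8.36 to 29.2 ± 10.6 CPM (log2 fold change 0.40 ± 0.12), and Syndig1l, a relative of the synapse differentiation gene Syndig1, from 4.66 ± 2.28 to 6.54 ± 2.70 CPM (0.54 ± 0.18). Ets2, a transcription factor of the ETS family, was at 73.2 ± 32.0 CPM in shKDM6B, 88.9 ± 40.3 CPM in the dead rescue and 159.9 ± 70.1 CPM in control. The other 3, Msantd2, Atp5s and the ubiquitin ligase Rnf19b, had log2 fold changes of 0.31, 0.35 and 0.22. Prmt8 overlaps Gm42738 and Syndig1l overlaps Gm48573 on the opposite strand.

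Those lower with the dead domain had Pitx1 at the smallest unadjusted p. Pitx1, which encodes a homeodomain protein of hindlimb and pituitary formation, stood at 3.99, 3.13, 1.67, 43.3 and 21 CPM in shKDM6B and at 0.989, 1.93, 1.23, 26.2 and 5.38 CPM in the dead rescue. The level was high in numbers 4 and 5 of both groups, and the groups overlapped. The fitted log2 fold change was -1.17 ± 0.30 (SE, 95% interval -1.79 to -0.54), and the active rescue averaged 6.50 ± 6.64 CPM (SD, n = 5).

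Hoxd3, a Hox gene of hindbrain and body axis patterning, stood at 6.51, 4.41, 3.68, 37.4 and 36.2 CPM in shKDM6B and at 2.27, 4.27, 2.87, 36.3 and 8.76 CPM in the dead rescue. Pairs 2 and 4 were nearly level, with log2 differences of -0.04 each, and pairs 1 and 5 carried the rest, at -1.5 and -2.04. The fitted log2 fold change was -0.79 ± 0.24 (SE), and the dead and active rescues averaged 10.9 and 10.6 CPM. Hoxd3 (chromosome 2, 74711927 to 74748442, plus strand) overlaps Hoxd4 and Gm28230 on its own strand and Haglr and Hoxd3os1 on the other, and part of its reads may belong to those genes. Pitx1 (chromosome 13, 55825051 to 55836192, minus strand) overlaps Gm28760 on its own strand and Gm47071 on the other.

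Tango6, a gene linked to transport through the Golgi, was the single one of the 20 whose groups did not overlap. The 20 were picked for small p and for all 5 pairs one way. How many of all tested genes had groups without overlap was not counted, so this is a description. It stood at 10.8, 10.5, 10.8, 10.3 and 12.8 CPM in shKDM6B and at 8.06, 8.08, 9.32, 9.11 and 9.62 CPM in the dead rescue. Every dead rescue library was thus below every shKDM6B library, by a fitted log2 fold change of -0.32 ± 0.10 (SE). The control averaged 9.87 ± 0.661 CPM and the active rescue 10.9 ± 1.55 CPM (SD, n = 5 each). Cited1, a transcriptional coactivator, was at 6.51, 6.64, 6.97, 32.9 and 1.76 CPM against 4.10, 5.50, 5.45, 16.6 and 1.33 CPM (log2 fold change -0.56 ± 0.17). The other 6, Ppp1r16a, Slc4a5, Zfp185, Clic6, Chn1 and Nod1, had log2 fold changes from -0.27 to -0.37.

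**Figure D3:**
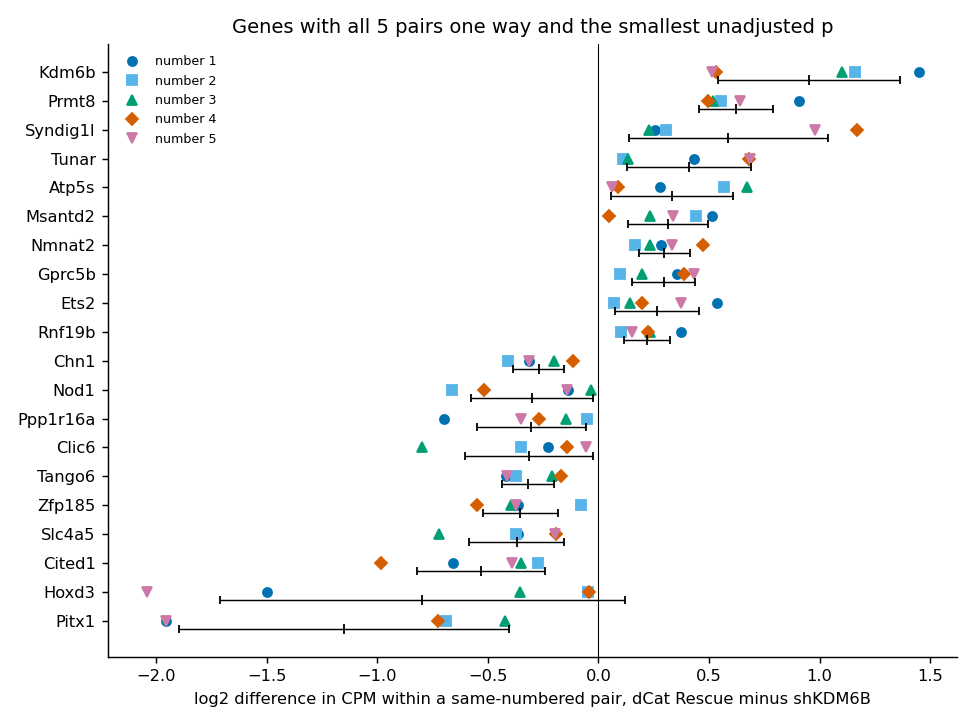
Log2 difference in CPM between the dead rescue and shKDM6B libraries of the same number (horizontal axis) for the 20 genes named by rule (vertical axis); symbols are the 5 numbers and black bars the mean and SD of 5 pairs. Prmt8 spans 0.49 to 0.91, while Hoxd3 reaches from -0.04 to -2.04.

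The genes that the shRNA shifted most give a second view of the dead rescue. The 19 genes described are 9 of the 10 most raised and the 10 most lowered between shKDM6B and control, each past an adjusted p of 0.05 in edgeR and on 1 side in all 5 pairs, as 12.9% of all genes were upward and 11.9% downward. Both comparisons use the shKDM6B libraries, so the values below are set side by side and no relation between them is taken as a result. None of the 19 passed the threshold between the dead rescue and shKDM6B.

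Among the raised genes, Camk2a, the kinase subunit abundant at forebrain synapses, averaged 3.89 ± 1.41 CPM in control, 18.1 ± 5.22 CPM in shKDM6B, 13.5 ± 4.75 CPM in the dead rescue and 14.3 ± 3.03 CPM in the active rescue (SD, n = 5 each). By library it stood at 23.2, 24, 16.1, 12.3 and 14.8 CPM in shKDM6B and at 13.2, 16.4, 15.7, 16.8 and 5.38 CPM in the dead rescue, higher in number 4 and lower in the other 4. The log2 fold change was -0.46 ± 0.20 (SE). Unc5d, a netrin receptor, and Galr1, a galanin receptor, were at 294% and 488% of control in shKDM6B and at 233% and 304% in the dead rescue. The RNA-binding protein gene Celf6 was at 305% and 246%, and the noncoding RNA Miat at 289% and 257%. Unc5d, Galr1, Celf6 and Miat were each higher than shKDM6B in pair 4 and lower in the other pairs. The 95% intervals of the log2 fold change included 0 for Unc5d (-0.84 to 0.30), Galr1 (-1.51 to 0.27) and Miat (-0.71 to 0.08). For Celf6 the interval ran from -0.64 to -0.006. Arhgap36 and Islr2 had log2 fold changes of -0.22 and -0.38 between the dead rescue and shKDM6B, each with a 95% interval that included 0.

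Among the lowered genes, Tnr, the matrix glycoprotein tenascin-R of perineuronal nets, showed how uneven the libraries were. It stood at 14.1, 17.9, 11.3, 0.230 and 15.3 CPM in shKDM6B and at 39.1, 15.4, 9.79, 0.949 and 43.7 CPM in the dead rescue. Numbers 1 and 5 were over 2-fold above shKDM6B, numbers 2 and 3 were slightly below it, and number 4 was near 0 in both groups. The mean was 19.8% of control in shKDM6B and 36.8% in the dead rescue, and the log2 fold change was 0.76 with a 95% interval from -0.06 to 1.57. Prmt8, named above, was at 37.2% and 57.9% of control.

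The other lowered genes had these levels. Kcnip2, a subunit of A-type potassium channels, was at 29.5% of control in shKDM6B and 47.3% in the dead rescue, and Kcnk12, a gene of a background potassium channel family, at 38.4% and 52.8%. Between the dead rescue and shKDM6B, the 95% interval of the log2 fold change was 0.04 to 1.02 for Kcnip2. It was -0.27 to 1.10 for Kcnk12 and -0.33 to 0.83 for Grin2c. Gabrd, the extrasynaptic GABA-A receptor subunit of mature granule neurons, was at 43.2% and 55.3%. It was higher in 5 of 5 pairs, with a log2 fold change of 0.35 and an interval from -0.48 to 1.17. Grin2c, the NMDA receptor subunit that granule neurons gain as they mature, was at 39.8% and 47.0%, and stood at 61.5, 54.5, 49.9, 4.74 and 50.1 CPM in the active rescue against 33.6, 27.1, 16.2, 8.54 and 51.6 CPM in the dead rescue. Mfsd4, Ntng1, Vipr1 and Olfm3 had log2 fold changes of 0.52, 0.59, 0.30 and 0.29 between the dead rescue and shKDM6B, each with a 95% interval that included 0.

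**Figure D4:**
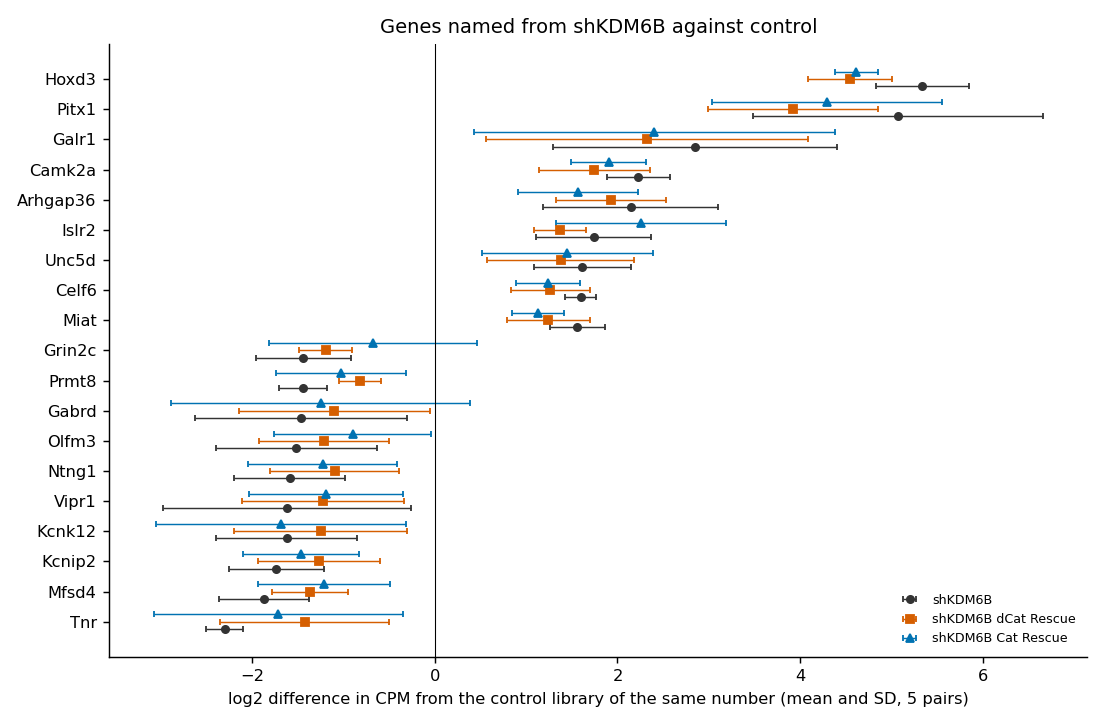
Log2 difference in CPM from the control library of the same number (horizontal axis) for 19 of the genes most changed between shKDM6B and control (vertical axis), as mean and SD of 5 pairs, for shKDM6B (black circles), the dead rescue (orange squares) and the active rescue (blue triangles). All 3 sets of values share the control libraries; for Tnr the mean was -2.30 in shKDM6B, -1.42 in the dead rescue and -1.71 in the active rescue.

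The study's question concerned synaptic genes, and the lists of neuronal genes gave 0 calls each between the dead rescue and shKDM6B. Of 35 genes of late granule neuron maturation, 29 lay above 0 in log2 fold change, as 7507 of the 15284 genes tested did. Their median was 0.12 against -0.00 over all genes, and 3 were under an unadjusted p of 0.05 in edgeR, all higher (0.726% of all genes). Between shKDM6B and control, 15 of the 35 passed the threshold, all lower (2.41% of all genes). The 3 were Vsnl1, a neuronal calcium sensor (142 ± 67.3 CPM in shKDM6B, 171 ± 72 CPM in the dead rescue), Cbln3, a granule neuron member of the cerebellin family (log2 fold change 0.29 ± 0.13), and Kcnip2 (0.53 ± 0.23). The pairs were uneven: the list's mean log2 difference was 0.25, -0.18, -0.10, 0.72 and 0.13 in pairs 1 to 5. The summed granule neuron markers also rose in pair 4, from 1313 to 2309 CPM, but Cbln3 belongs to both lists. Without the libraries numbered 4, 16 of the 35 genes were positive and the median was -0.01.

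Presynaptic genes gave a like picture. Of 49 genes of vesicles and release, 35 were positive (7507 of all 15284 were) with a median of 0.05. Under an unadjusted p of 0.05 lay 2, both higher (0.726% of all genes). Syt7, a calcium sensor of slow release, stood at 69.3, 103, 69.7, 42.1 and 105 CPM in shKDM6B and at 95.4, 114, 78.6, 45.7 and 128 CPM in the dead rescue, higher in 5 of 5 pairs (log2 fold change 0.24 ± 0.11, SE). Napb, which helps recycle SNARE complexes, was at 134, 189, 122, 12 and 111 CPM against 236, 156, 108, 34.7 and 151 CPM, higher in 3 of 5 pairs. Snap25, a SNARE protein gene, had a log2 fold change of 0.31 with an interval from -0.04 to 0.66. Without the libraries numbered 4 the median of the list was -0.08, 14 of 49 genes were positive, and 1 was higher and 6 lower at an unadjusted p under 0.05. Over all 15225 genes of that setting, 7731 were positive, with 501 higher and 498 lower at that threshold.

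On the postsynaptic side, 50 genes of glutamate receptors and scaffolds had a median log2 fold change of 0.00, with 25 positive and 25 negative. Of them, 2 had an unadjusted p under 0.05 (1.4% of all genes did). These were Camk2a, lower, and the scaffold gene Dlgap1, higher at 0.22 ± 0.10 (SE). Shank3, a scaffold gene tied to autism, was higher in 5 of 5 pairs, at 78.4, 78.6, 67.8, 19.6 and 85.7 CPM against 89.9, 85.2, 71.8, 30.5 and 96.6 CPM. Neto1, an auxiliary subunit of kainate receptors, was at 8.22 ± 5.90 CPM against 5.02 ± 4.52 CPM (SD, n = 5 each), lower in 4 of 5 pairs. The 18 tested genes of GABA and glycine receptors had a median of 0.06 and 0 under an unadjusted p of 0.05. The 53 voltage-gated channel genes had a median of 0.00; Kcnip4 averaged 1.5 CPM in shKDM6B and 2.83 CPM in the dead rescue. Among 70 adhesion and guidance genes the median was 0.02, and Nrxn3, a presynaptic neurexin, had a log2 fold change of 0.27 ± 0.10 (SE), higher in 3 of 5 pairs. In pair 4 alone these 4 lists averaged 0.41 to 0.57, the pair in which the granule neuron markers were 1313 and 2309 CPM, and without the libraries numbered 4 their medians ran from -0.11 to -0.05. Leaving out number 4 removes everything that set those libraries apart, so the part of the marker difference in these values was not tested.

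**Figure D5:**
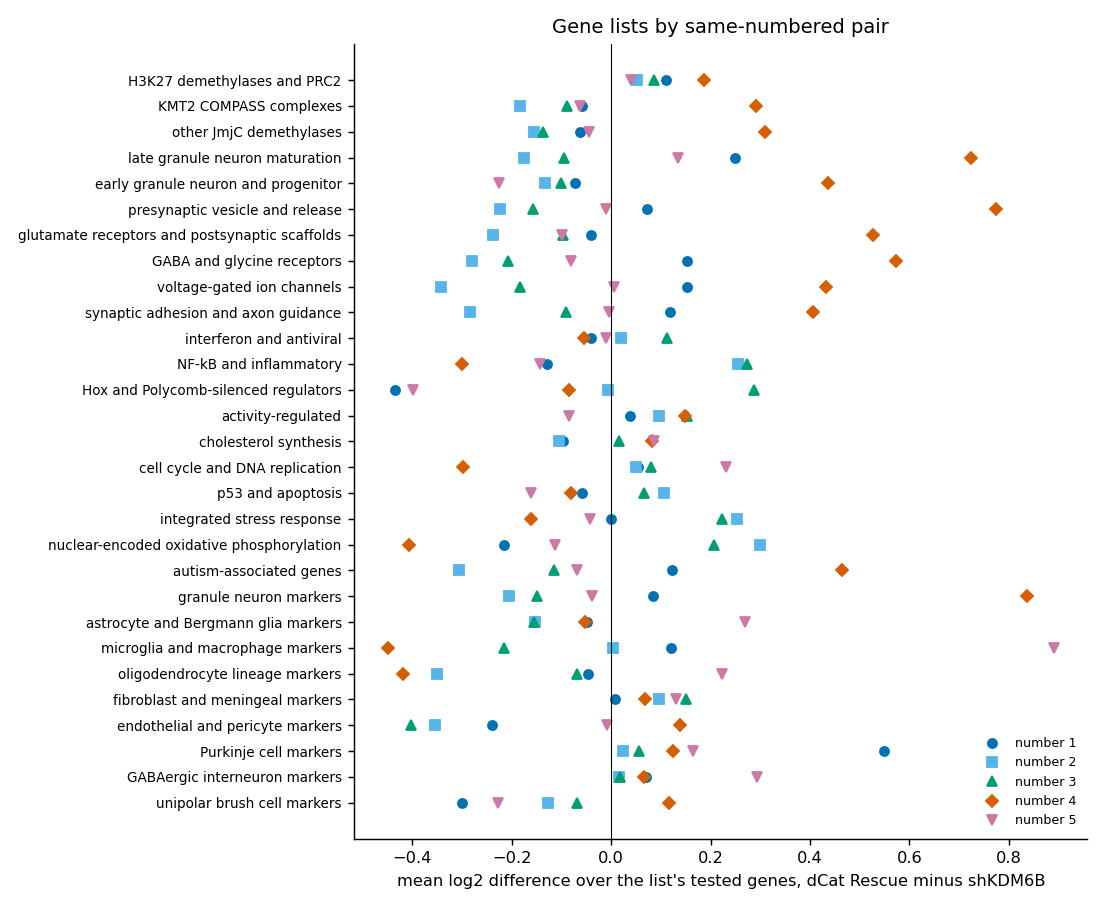
Mean log2 difference between the dead rescue and shKDM6B libraries of the same number over the tested genes of each list (horizontal axis; lists on the vertical axis), with 1 symbol per number. Number 4 lies to the right of the other numbers for late granule neuron maturation, at 0.72, and for granule neuron markers, at 0.84. For Purkinje cell markers number 1 does, at 0.55, and for GABAergic interneuron markers number 5, at 0.29.

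Genes known as targets of Polycomb were described as a list because KDM6B removes the mark that PRC2 writes. H3K27 methylation was not measured in these libraries, so whether it covered these genes here was not tested. Of 62 Hox and other developmental regulators, 29 had enough counts to be tested, 10 were positive and the median log2 fold change was -0.05. Pitx1 and Hoxd3 were the 2 lower genes under an unadjusted p of 0.05 (0.674% of all genes were lower at that threshold). Both had been named above for a small p in the same comparison. Otx1, a homeobox gene of forebrain and cerebellar development, lay the other way in 5 of 5 pairs, at 0.657, 1.49, 1.67, 0.552 and 2.85 CPM in shKDM6B and at 1.28, 2.91, 3.46, 0.633 and 3.65 CPM in the dead rescue. The list's mean log2 difference was -0.44, -0.01, 0.29, -0.08 and -0.40 in pairs 1 to 5, with no common direction.

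Innate immune genes lay close to their shKDM6B level in the dead rescue. Over 55 interferon and antiviral genes the median log2 fold change was 0.01 against shKDM6B, with 30 positive, and 0.31 against the active rescue, with 8 higher in 5 of 5 pairs (2% of all genes were). In edgeR no gene of the list passed the threshold in either. Limma voom with library weights called Oas2 between the dead and the active rescue, one of its 4 calls. Both comparisons use the dead rescue libraries, and between shKDM6B and control the median was 0.31. Oas2, an antiviral sensor, averaged 47.1 ± 23.2 CPM in shKDM6B, 52.3 ± 25.4 CPM in the dead rescue and 36.8 ± 22.2 CPM in the active rescue (SD, n = 5 each). Rsad2, another interferon target, was at 74.7 ± 21.1 CPM against 62.6 ± 22.8 CPM. The 30 tested NF-kB and inflammatory genes had a median of -0.01 against shKDM6B and 0 under an unadjusted p of 0.05.

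The remaining pathway lists held few differences. The 41 activity-regulated genes had a median log2 fold change of 0.03; Per1, a clock gene induced by activity, was higher in 5 of 5 pairs by 0.14 ± 0.08 (SE), and Nr4a1, an immediate early gene, was at 6.35 ± 3.35 CPM against 7.43 ± 2.97 CPM (SD, n = 5 each). Of 26 integrated stress response genes, 20 were positive with a median of 0.07; Asns, the asparagine synthetase gene, had a log2 fold change of 0.14 ± 0.08 (SE). Of 54 nuclear-encoded oxidative phosphorylation genes, 11 were positive with a median of -0.05. That balance turned without the libraries numbered 4, with 44 positive and a median of 0.06. The 39 cell cycle genes had a median of 0.02, the 25 cholesterol synthesis genes -0.00 and the 23 p53 and apoptosis genes -0.02. The 35 tested genes of early granule neurons and progenitors had a median of -0.05, with Stmn2, a neuronal tubulin regulator, higher in 5 of 5 pairs (0.18 ± 0.11, SE). All 7 of these lists had 0 genes under an unadjusted p of 0.05 with all libraries. Without the libraries numbered 4, 11 of 34 early granule neuron genes were lower and 1 higher at that threshold, 5 of 26 stress response, 3 of 41 activity-regulated and 2 of 39 cell cycle genes were higher, and the other 3 lists again had 0. Over all genes that setting gave 501 higher and 498 lower of 15225.

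Autism-associated genes, 54 in number, had a median log2 fold change of 0.01 and 2 members under an unadjusted p of 0.05 (1.4% of all genes were). One was Kdm6b. The other was Tbr1, a transcription factor of cortical and cerebellar nuclear neurons, singled out after its values were seen because its mean lay under the 1 CPM that the naming rule asks of list members. It was at 1.47 ± 0.169 CPM in shKDM6B, 0.749 ± 0.287 CPM in the dead rescue, 0.874 ± 0.261 CPM in control and 0.813 ± 0.466 CPM in the active rescue (SD, n = 5 each). It was lower in 5 of 5 pairs, at a fitted log2 fold change of -1.05 with a 95% interval from -1.74 to -0.37. The list as a whole averaged 0.47 in pair 4. Without the libraries numbered 4, 13 of the 54 genes were positive and the median was -0.09, with 1 higher and 6 lower at an unadjusted p under 0.05. Over all 15225 genes of that setting, 7731 were positive, with 501 higher and 498 lower at that threshold.

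Markers of other cell types also had 0 calls. The 12 fibroblast markers had a median log2 fold change of 0.09, and Col6a2, a collagen VI chain, was higher in 5 of 5 pairs (49.7, 29.5, 123, 66.5 and 109.9 CPM against 57.9, 42.0, 144, 74.0 and 154 CPM). The 13 astrocyte markers had a median of -0.06, the 15 microglia markers 0.09, the 12 oligodendrocyte lineage markers -0.05, the 11 endothelial markers -0.11, the 6 tested Purkinje cell markers 0.02 and the 6 tested unipolar brush cell markers -0.15. The microglia markers were uneven: their mean log2 difference was 0.12, 0.00, -0.22, -0.45 and 0.89 in pairs 1 to 5. Without the libraries numbered 4, 14 of the 15 were positive with a median of 0.19. Of all 9 Purkinje cell markers, 1 to 3 were at 0 in each library, and Pcp2, Skor2 and Ppp1r17 had too few counts to be tested. Of 10 GABAergic interneuron markers, 6 were positive and 4 negative, and 2 were higher at an unadjusted p under 0.05 (0.726% of all genes): Gad1, which makes GABA, by 0.24 ± 0.11, and its vesicle transporter gene Slc32a1, by 0.16 ± 0.07 (log2 fold change ± SE). Without the libraries numbered 4, 0 of the 10 were higher and 1 was lower at that threshold, where 501 and 498 of all 15225 genes were.

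The direct test of the dead against the active rescue, which bears on the enzyme's activity, called 1 of 15284 genes (0.00654%) in edgeR. That gene was Kcnip1, a potassium channel interacting protein gene, which averaged 1.71 ± 0.957 CPM in the dead rescue, 6.07 ± 4.71 CPM in the active rescue, 1.48 ± 0.749 CPM in shKDM6B and 1.16 ± 0.621 CPM in control (SD, n = 5 each). It is below the 5 CPM of the naming rule and was singled out after its values were seen. By library it stood at 2.52, 2.77, 1.41, 1.46 and 0.398 CPM with the dead domain and at 12.9, 8.42, 4.39, 4.10 and 0.576 CPM with the active domain. It was lower with the dead domain in 5 of 5 pairs (3.49% of all genes were), by a log2 fold change of -1.67 ± 0.24 (SE; edgeR adjusted p = 0.0411). The call ended when any dead rescue library, or active rescue library 1, 2 or 3, was left out.

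Of the 20 genes named for the dead rescue against shKDM6B, 12 had a log2 fold change of the dead against the active rescue larger than its standard error. These 20 were picked by their values in the same dead rescue libraries, and the share of all genes was not counted. The 12 and the values of the 20 are therefore a description and no result about the domain's activity. Pitx1 had a log2 fold change of -0.32 ± 0.30 (SE), Hoxd3 -0.01 ± 0.24, Prmt8 0.16 ± 0.19, Nmnat2 0.06 ± 0.07 and Gprc5b 0.01 ± 0.08 for the dead against the active domain. Tango6 was lower with the dead domain at -0.30 ± 0.10 and Slc4a5, a bicarbonate transporter gene, at -0.41 ± 0.12. Larger differences, picked here for their size, lay among the other genes described. Islr2 had a log2 fold change of -0.93 ± 0.27, lower with the dead domain in 4 of 5 pairs. Grin2c had -0.65 ± 0.28, lower in 3 of 5 pairs, and Oas2 had 0.56 ± 0.12, higher in 5 of 5. None of these passed the threshold in edgeR.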

How the data were processed

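RNA sequencing of 20 libraries was analysed from 1 table of estimated counts per gene, deposited by the authors; its name points to salmon, which assigns reads to transcripts and estimates how many each received. Per the submitters' processing notes, mm10 was the genome build. The salmon version, transcript annotation, trimming and strand setting were not given in the sources used here. Columns were matched to samples by name.

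Estimated counts were rounded to whole numbers. Genes were filtered with filterByExpr, which removed 9127, scaled with TMM factors and tested with edgeR 4.0.16 (R 4.3.3): quasi-likelihood, robust, two-sided, Benjamini-Hochberg over all genes tested, threshold 0.05. The fit held all 20 libraries, with group and replicate number as additive terms, since the columns compared are paired by their number. Checked on the data, same-numbered libraries of the dead rescue and shKDM6B shared their deviations from the group means (Pearson r 0.48 to 0.82 across genes; 0.36 to 0.88 over all 30 same-numbered pairs; limit 0.1). The labels do not say what the number stands for. Kdm6b and Kdm6a were tested on log2 CPM (prior count 1). The fit was tested on simulated data.

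Named genes were Kdm6b and Kdm6a, genes passing the test at 5 CPM or more on average and with all 5 pairs one way (filled to 10 a direction by smallest unadjusted p), the 10 largest rises and falls of shKDM6B against control, and up to 4 members of each of 20 pathway and 9 marker lists with a mean of at least 1 CPM. Predicted genes were left out, and 1 gene that the rule gives is not reported here. The comparison, the members and the lists were chosen with earlier results of these data known. Of 141 named genes, 139 had coordinates in GENCODE M21, which may differ from the annotation used for counting. Alternatives were the fit without the block, DESeq2 1.42.0 and its size factors, no filter, the 10 libraries alone, subsets of numbers, each library left out and, added later, limma 3.58.1 voom with library weights. No sequences are given, since no readout here bears on one.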

Additional observations from a re-analysis of the deposited data

Results flagged for a closer look

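In the lists and genes compared over 5 values, 8 of 91 groups of 5 held a value far from the other 4 relative to the group's range, where chance gives about 1 in 20. For 5 of the 8 it was the pair numbered 4, in which the dead rescue lay above shKDM6B: the mean log2 difference was 0.84 for granule neuron markers, 0.53 for glutamate receptors and postsynaptic scaffolds, 0.44 for early granule neuron and progenitor genes, 0.31 for other Jumonji demethylases and 0.29 for KMT2 COMPASS subunits. In pair 5 it was 0.29 for GABAergic interneuron markers and 0.27 for astrocyte markers. In pair 1 it was 0.55 for the 6 tested Purkinje cell markers.

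Kcnip1 differed between the dead and the active rescue, with a log2 fold change of -1.67 in the direct edgeR contrast (adjusted p = 0.0411). It was lower with the dead domain in 5 of 5 pairs, and it was the single gene called of the 15284 tested in that contrast. The gene averaged 2.61 CPM over the 20 libraries. The call ended without the replicate block, with the 10 libraries alone and without the libraries numbered 4. It also ended when any dead rescue library, or active rescue library 1, 2 or 3, was left out.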

How the results depend on the processing

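Between the dead rescue and shKDM6B, 0 genes were called with DESeq2 size factors, without the filter, with the 10 libraries alone, without the libraries numbered 4, with numbers 4 and 5 alone, with limma voom and library weights (an alternative chosen after seeing the data, 872 genes under an unadjusted p of 0.05) and with each library left out. The exceptions were numbers 1 to 3 alone (1 gene, Kdm6b) and DESeq2 (146 genes). Of those 146, 141 had been removed by the filter, 142 were at 0 counts in at least 5 of the 10 libraries, and 5 were tested in edgeR: Kdm6b (adjusted p = 0.000747), Nmnat2 (0.00298), Gprc5b (0.0187), Olfr90 and Duoxa2.

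Without the replicate block the counts of calls were 0 for the dead rescue against shKDM6B (25 genes under an unadjusted p of 0.05), 1 for shKDM6B against control and 0 for the dead against the active rescue. The Kdm6b difference then had an exact permutation p of 0.103. Leaving out a number moved that difference between 0.83 and 1.06, with p = 0.125, the smallest that 4 pairs allow in the exact test.

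For shKDM6B against control (632 genes) the count was 1047 with DESeq2, 1789 with the 10 libraries alone, 0 with numbers 4 and 5 alone, 990 without the libraries numbered 4 and 1700 with voom. Leaving out a library gave 352 (without shKDM6B 5) to 648 (without shKDM6B 4), and 414 without shKDM6B 1. For the dead against the active rescue (1 gene) it was 137 with DESeq2, 9 with numbers 1 to 3 alone, 4 with voom, 0 with numbers 4 and 5 alone, with the 10 libraries alone and without the libraries numbered 4, and 0 to 2 with a library left out. The causes were not tested. The Kdm6a log2 fold change, 0.11, turned to -0.10 in numbers 1 to 3, to -0.050 without the libraries numbered 4 and to -0.028 without shKDM6B 4; leaving out single libraries gave -0.028 to 0.22. Of 120 list members and other values given without a test, 37 changed sign in at least 1 setting. Lists were also recomputed without the libraries numbered 4, a choice made after seeing the data.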

Other observations

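A pair of genes with counts near 0 in shKDM6B was picked out after their values were seen. Olfr90, an olfactory receptor gene, had 0 counts in all 5 shKDM6B libraries and 18, 8, 9, 5 and 3 counts in the dead rescue. Pooled over the group that is at least 15.3-fold higher than a floor of 3 counts over the 5 shKDM6B libraries. The active rescue had 20, 26, 13, 9 and 1 counts, and the control 143, 172, 102, 0 and 0. Duoxa2, which encodes a maturation factor of a dual oxidase, had 0, 1, 0, 1 and 0 counts in shKDM6B, 17, 14, 11, 1 and 2 in the dead rescue, 25, 13, 10, 1 and 7 in the active rescue and 109, 181, 129, 0 and 2 in control. For both genes the counts in control came nearly all from numbers 1 to 3. Neither passed the threshold in edgeR between the dead rescue and shKDM6B, and DESeq2 called both.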
